A study of Mus musculus with 5 samples.

Results

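The nuclear genes of the mitochondrial respiratory chain were followed through 5 mouse medulloblastomas. They were taken by symbol: every probe of the array annotated to a gene beginning with Nduf, Uqcr or Atp5, to Sdha, Sdhb, Sdhc or Sdhd, or to a cytochrome oxidase subunit of the Cox4 to Cox8 families. This gave 135 of the 45281 probes and 87 of the 19057 named genes. The tumours were end-stage brain tumours of mice carrying SmoA2, an activated form of Smoothened, the signal-transducing component of the hedgehog pathway. All 5 carried SmoA2, and they differed in Myod1, which encodes the muscle transcription factor MyoD: 3 were MyoD+/+;SmoA2 and 2 were MyoD+/-;SmoA2. The series asks whether the muscle differentiation programme takes part in what MyoD loss does in these tumours. The promoter that drives SmoA2 was not given in the sources used here, and whether the 5 tumours come from 5 mice is not stated either, so a p-value here measures spread among the tumours sampled, which may be technical. Ages are not among the labels used.

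The respiratory chain passes electrons from NADH (complex I) and succinate (complex II) through ubiquinone, complex III and cytochrome c to oxygen at complex IV, and the proton gradient it builds drives ATP synthase, complex V. Most subunits are encoded in the nucleus and made in the cytosol, and a small core is encoded by mitochondrial DNA. Cytochrome oxidase is known for subunits that exist in general and tissue-specific forms, among them the heart and skeletal muscle forms Cox6a2, Cox7a1 and Cox8b. In the cerebellum, dividing granule neuron precursors, from which hedgehog tumours arise, are known for high aerobic glycolysis. Nuclear respiratory factor 1 (NRF1) and the ETS-family factor GABP are the textbook activators of these genes.

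Promoter stretches are printed for 8 genes from across the complexes, to show motifs of those factors or, for Cox8b, another motif. The windows were RefSeq promoters of mouse build GRCm38.p6, from 250 bases before to 50 bases after each start, and 72 of the 87 genes had one (77 windows, since some genes have several starts). Capitals mark GCGCANGCG (NRF1) or CCGGAAG (the ETS core), read on both strands, with overlapping matches run together. For Cox8b, which held neither, they mark CAGCTG, an E-box of the kind that MyoD binds. Each stretch reads 5′ to 3′ on the gene's strand. For complex I, the Ndufa8 stretch lies at chr2:36049339-36049398 (minus strand) and the Ndufa11 stretch at chr17:56717682-56717741 (plus strand). The Sdhd stretch of complex II lies at chr9:50603875-50603944 and the Uqcr11 stretch of complex III at chr10:80406822-80406901 (both minus strand). For complex IV, the general form Cox6a1 is shown at chr5:115348959-115349133 and the muscle form Cox8b at chr7:140900447-140900506 (both minus strand). For complex V, the Atp5h stretch lies at chr11:115419940-115420069 and the Atp5k stretch at chr5:108434400-108434459 (both minus strand).
Ndufa8: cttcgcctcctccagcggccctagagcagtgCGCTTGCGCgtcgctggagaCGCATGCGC
Ndufa11: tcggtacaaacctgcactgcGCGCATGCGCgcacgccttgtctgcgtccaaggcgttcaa
Sdhd: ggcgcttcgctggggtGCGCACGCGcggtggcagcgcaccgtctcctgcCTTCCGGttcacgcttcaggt
Uqcr11: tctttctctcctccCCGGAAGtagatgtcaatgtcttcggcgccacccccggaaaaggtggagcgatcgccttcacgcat
Cox6a1: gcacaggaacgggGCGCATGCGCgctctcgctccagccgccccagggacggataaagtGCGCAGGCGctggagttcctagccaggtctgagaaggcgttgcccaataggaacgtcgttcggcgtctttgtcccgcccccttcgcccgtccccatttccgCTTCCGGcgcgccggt
Cox8b: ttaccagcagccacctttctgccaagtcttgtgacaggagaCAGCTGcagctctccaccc
Atp5h: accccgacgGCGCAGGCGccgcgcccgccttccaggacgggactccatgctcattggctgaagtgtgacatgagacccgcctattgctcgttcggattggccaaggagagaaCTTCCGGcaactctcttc
Atp5k: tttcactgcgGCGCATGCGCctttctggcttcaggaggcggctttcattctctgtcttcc

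The NRF1 motif stood in the window of 21 of the 72 genes (29.2%), against 10.46% of the 15207 genes on the array with a window and 7.03% of all genes with one. Counted by window, it stood in 28.6% of these genes' windows and in 6.25% of all 32851 windows. The ETS core stood in 18 of the 72 (25%), against 13.8% of genes on the array and 9.93% of all. By window these shares were 23.4% and 8.86%. Complex V held the NRF1 motif in 7 of 14 genes and complex I subunits in 7 of 32. Of the 11 cytochrome oxidase genes with a window, 1 held the NRF1 motif and 2 the ETS core. The 6 genes with both motifs were Sdhd, Uqcr11, Cox6a1, Atp5h, Atp5k and Atp5l, and 33 genes held at least 1 of the 2. The E-box, a motif added after expression values had been seen, stood in 5 of the 72 (6.94%), against 18.01% of genes on the array. Those 5 were Ndufa8, Ndufb10, Ndufv2, Cox8b and Atp5b. A match says only that these letters lie in the window.

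Expression was read from 1 Illumina bead array per tumour. The median probe signal ran from 133.6 to 148.1 on the linear scale, and 37.0% to 39.9% of probes were detected on each array, both lowest in MyoD+/+ tumour 2. Levels below are normalized log2 intensities. Probes of different genes bind with different strength, so levels are compared between tumours and not between genes. The tissue label was checked against granule neuron precursor markers, of which 10 of 14 were detected, with a mean log2 level from 9.95 to 10.29 in every tumour. Atoh1, Pax6, Gli1 and Mycn were the 4 not tested. Myod1 itself was at 7.25, 6.38 and 7.08 in MyoD+/+ tumours 1 to 3 against 6.31 and 6.67 in MyoD+/- tumours 1 and 2, and the groups overlapped (difference -0.41 ± 0.28, SE; limma adjusted p = 0.957).

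The respiratory chain was detected almost throughout. A probe counted as detected where its detection p was under 0.05, and a gene was tested where a probe was detected on at least 2 of the 5 arrays. By this rule 77 of the 87 genes were tested, and 72 of the 77 (93.5%) were detected on all 5 arrays, against 84.6% of the 10474 genes tested on the whole array. The tested genes comprised 34 of 36 complex I subunit genes, 7 of 8 complex I assembly factors, 3 of 4 genes of complex II, 6 of 7 of complex III, 11 of 16 of complex IV and all 16 of complex V. Of these, 2 passed through MyoD+/+ tumours alone: Atp5md, detected in all 3, and Cox8b, detected in 2.

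The 10 genes not tested included core enzymes of the chain. Ndufs1, the large iron-sulphur subunit of complex I, Sdha, the flavoprotein of succinate dehydrogenase, and Uqcrfs1, the Rieske iron-sulphur protein of complex III, were detected on no array. The others were Ndufb4 and Ndufaf6 of complex I, and Cox4i2, Cox6a2, Cox7b, Cox7b2 and Cox8c of complex IV. Of these, Cox7b was detected on 1 array. A probe not above background gives no more than an upper bound for that probe. The same arrays held 12 genes of the chain with 1 probe on no array and another on all arrays, among them Sdhc, Cox5b, Uqcrq and Atp5l, so detection depended on the probe as well as on the gene. No probe was listed for Atp5g1, Cox8a, Ndufa4l2 or any of the 13 subunits encoded by mitochondrial DNA.

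No gene of the chain differed between the genotypes past an adjusted p of 0.05 (limma with Benjamini-Hochberg adjustment over 10474 genes; 0 of 77, against 0% of all genes tested). At an unadjusted limma p under 0.05 there was 1 gene of 77, Atp5md, lower in the MyoD+/- tumours, against 5.26% of all genes tested (2.49% higher and 2.77% lower). Atp5md passed the filter through the MyoD+/+ tumours alone, so its difference is no test. In 7 of the 77 both MyoD+/- tumours lay above all 3 MyoD+/+ tumours, and in 7, Atp5md among them, they lay below, against 10% and 10.9% of all genes tested. All these counts were at or under the array-wide shares. The median difference over the 77 genes, as MyoD+/- minus MyoD+/+, was 0.04 on the log2 scale, with 48 genes higher and 29 lower (62.3% higher, against 49.6% of all genes). Over all genes tested the median was -0.00.

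The intervals describe precision within 1 normalization and these 5 tumours, and do not cover the choice of scaling. With median scaling in place of quantile normalization, the median difference was 0.26 over the chain and 0.14 over all genes. In 71 of the 77 genes (92.2%) the 95% interval lay within 1 log2 unit on either side of 0, against 87.7% of all genes tested. In 33 (42.9%) it lay within 0.5 of 0, against 16.9%. The 6 with wider intervals were Ndufb2, Sdhd, Cox7a1, Cox8b, Atp5k and Atp5md. In a bulk tumour sample, fewer cells of a type and less RNA per cell cannot be told apart. By genotype, no marker of another cell type passed an adjusted limma p of 0.05. Of 9 oligodendrocyte markers 8 were lower in the MyoD+/- tumours, with a mean log2 level of 9.17, 9.21 and 8.65 against 8.29 and 8.32. For 6 of them the unadjusted limma p was under 0.05, against 2.77% of all genes tested lower at that threshold. Of 10 astrocyte markers 8 were lower, 3 of them at that threshold. Of 11 endothelial and mural markers 10 were lower, and of 9 microglia and macrophage markers 6 were higher. The part of these cell types in the values of the respiratory chain was not tested.

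**Figure D1:**
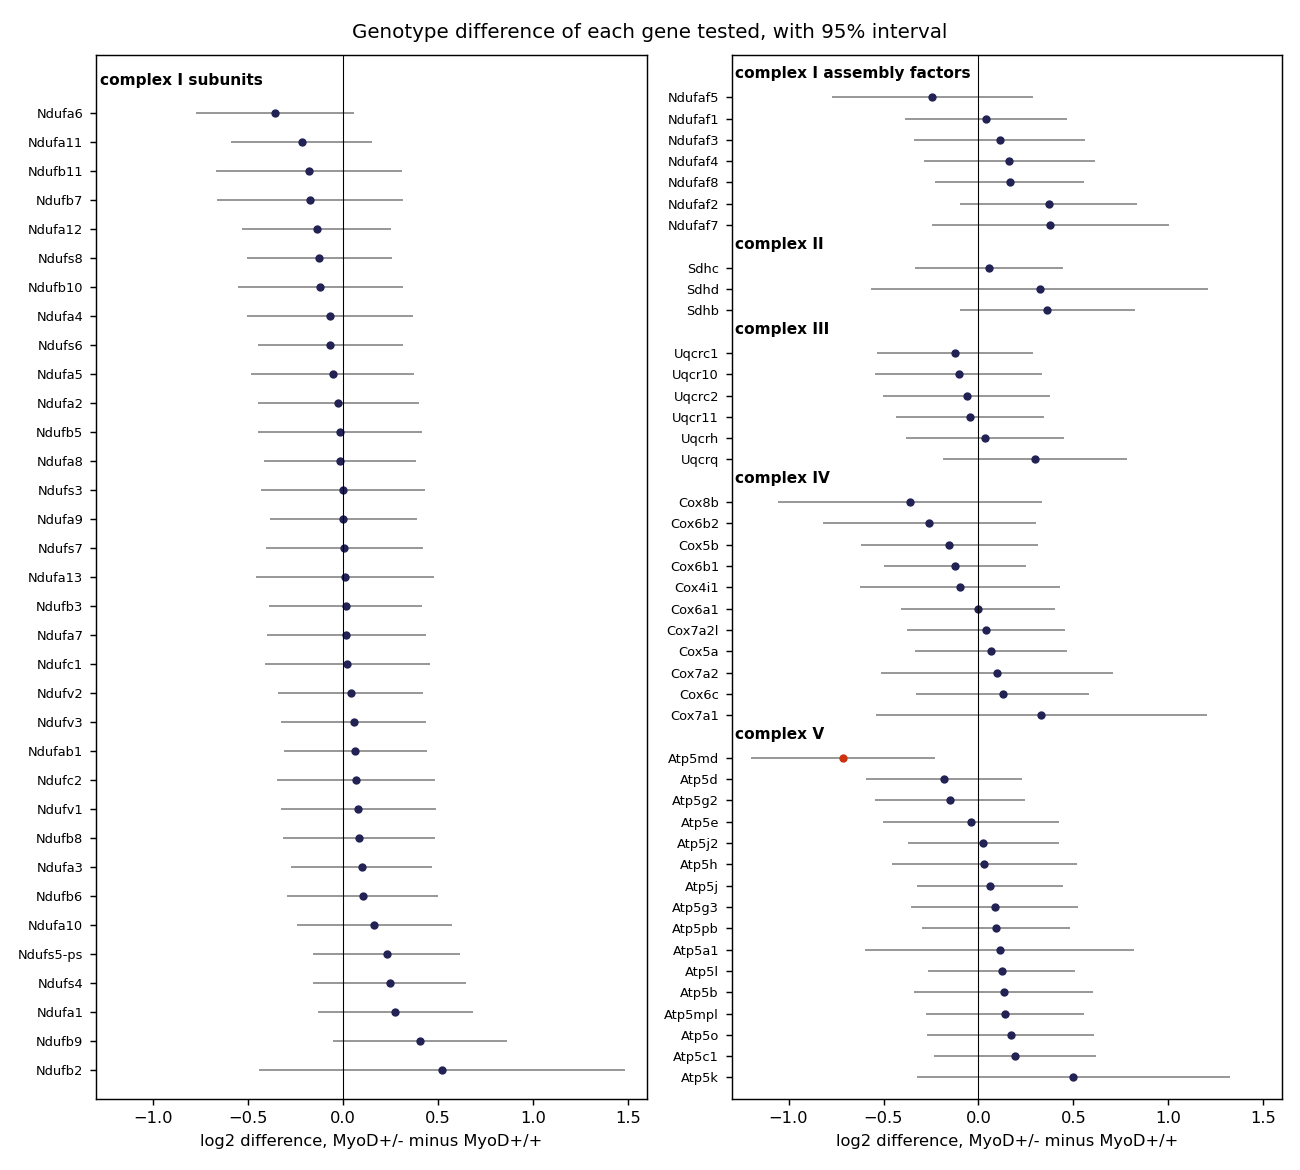
Genotype difference (MyoD+/- minus MyoD+/+, log2) of the 77 respiratory chain genes tested, by complex. Points are limma estimates from 3 and 2 tumours and lines are 95% intervals; Atp5md (red) has an interval from -1.19 to -0.23, but its probe was detected in the MyoD+/+ tumours alone, so that interval is no test.

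Complex I oxidises NADH, and its 34 tested subunit genes had the smallest median range of any complex, 0.303 log2 units. The median difference was 0.01, from -0.36 (Ndufa6) to 0.52 (Ndufb2), with 20 genes higher and 14 lower. Ndufv1, which binds NADH and the flavin, had levels of 12.18, 12.04 and 12.33 against 12.21 and 12.32 (values are given in this order throughout, MyoD+/+ tumours 1 to 3 against MyoD+/- tumours 1 and 2). The genotypes differed by 0.08 ± 0.17 (SE, n = 3 and 2). Ndufs7, Ndufs8 and Ndufs3, of the arm that hands electrons to ubiquinone, differed by 0.01, -0.12 and -0.00. The groups did not overlap for 5 genes that were higher in the MyoD+/- tumours (Ndufb9, Ndufa1, Ndufs4, Ndufs5-ps and Ndufa3) and for 3 that were lower (Ndufa6, Ndufa11 and Ndufs8), of 34 tested, against 10% and 10.9% of all genes tested. For Ndufa3 the second probe overlapped, with a difference of -0.07. The other Ndufs4 probes overlapped as well, with differences of 0.08, 0.08 and 0.06.

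The smallest unadjusted p-values of complex I belonged to Ndufb9 and Ndufa6, accessory subunits that both belong to the LYR family and bind the acyl carrier protein Ndufab1. Ndufb9 was at 6.75, 6.74 and 7.15 against 7.28 and 7.29, so both MyoD+/- tumours lay above the others (0.41 ± 0.19; limma adjusted p = 0.945). Ndufa6 was at 11.69, 11.90 and 11.77 against 11.29 and 11.56, so both lay below (-0.36 ± 0.17; limma adjusted p = 0.945). Ndufab1 itself differed by 0.07. Ndufa1, a membrane-arm subunit encoded on the X chromosome, was at 11.23, 10.95 and 11.09 against 11.30 and 11.42 (0.28 ± 0.17). Ndufa11, another membrane-arm subunit, was at 10.80, 10.77 and 10.80 against 10.57 and 10.58; the tumours within each genotype differed by little, and the difference of -0.22 ± 0.16 had an adjusted limma p of 0.957. Ndufs5-ps is annotated as a pseudogene, and its probe may also bind Ndufs5 transcripts, so its value (10.11, 10.13 and 9.96 against 10.27 and 10.33) is uncertain.

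Assembly factors build complex I and are not part of it. Of 7 tested, 6 were higher in the MyoD+/- tumours, with a median difference of 0.16. Ndufaf2, a chaperone that acts late in assembly, was at 8.30, 8.14 and 7.95 against 8.68 and 8.33, without overlap (0.37 ± 0.20; limma adjusted p = 0.945). Ndufaf7, a methyltransferase, was at 6.70, 6.32 and 7.16 against 6.97 and 7.24 (0.38 ± 0.26). Ndufaf5, which hydroxylates Ndufs7, was the lower one, at 8.13, 7.76 and 8.18 against 7.54 and 8.02 (-0.24 ± 0.22). For these last 2 genes the groups overlapped.

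Complex II is succinate dehydrogenase, which is also an enzyme of the citric acid cycle, and 3 of its 4 genes were tested. Sdhb, the iron-sulphur subunit, was at 8.95, 8.57 and 8.93 against 9.07 and 9.30, without overlap (0.36 ± 0.19; limma adjusted p = 0.945). Its 3 probes gave 0.28, 0.48 and 0.36. For the probe at 0.28 the groups overlapped, and it was not above background in MyoD+/+ tumour 1. Sdhc, a membrane anchor, was flat at 10.95, 10.74 and 10.81 against 10.89 and 10.89. Sdhd, the other anchor, had 1 of the 5 widest ranges of the chain, at 5.53, 6.19 and 6.49 against 5.87 and 6.91. Its difference of 0.32 ± 0.38 was smaller than the gap between the MyoD+/- tumours.

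Complex III passes electrons from ubiquinol to cytochrome c, and its 6 tested genes had a median difference of -0.05, with 2 higher and 4 lower and every pair of groups overlapping. Uqcrc1, a core protein, was at 11.07, 11.12 and 11.23 against 10.88 and 11.15 (-0.12 ± 0.17). Uqcr10, a small subunit, was at 12.81, 12.61 and 12.83 against 12.48 and 12.82 (-0.10 ± 0.18). Uqcrq, the ubiquinone-binding small subunit, was at 7.90, 7.77 and 8.26 against 8.17 and 8.38 (0.30 ± 0.20). In all 6 genes MyoD+/- tumour 2 was above MyoD+/- tumour 1, by 0.18 to 0.34.

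Complex V, ATP synthase, had 12 genes higher and 4 lower, with a median difference of 0.09. In 0 of its 16 genes both MyoD+/- tumours lay above all 3 MyoD+/+ tumours, against 10% of all genes tested. In 3 of the 16 they lay below, against 10.9%: Atp5md, Atp5d (-0.18 ± 0.17) and Atp5g2. Atp5a1 and Atp5b, the alpha and beta subunits that form the catalytic head, differed by 0.11 ± 0.30 and 0.13 ± 0.20. Atp5b was at 14.23, 13.92 and 14.31 against 14.13 and 14.44, and Atp5a1 at 8.24, 7.52 and 8.11 against 7.70 and 8.44. In both genes the lowest tumour was MyoD+/+ tumour 2 and the highest was MyoD+/- tumour 2. Atp5c1, the gamma subunit of the turning shaft, was at 11.85, 11.69 and 11.87 against 11.83 and 12.16 (0.19 ± 0.18). The membrane ring is built from 1 protein made by several genes, of which Atp5g2 was at 10.66, 10.82 and 10.60 against 10.59 and 10.496 and Atp5g3 at 13.69, 13.49 and 13.88 against 13.69 and 13.85. After normalization Atp5g2 did not overlap (-0.15 ± 0.17), and Atp5g3 did (0.09 ± 0.19). Before normalization the Atp5g2 signals overlapped, at 1763.1, 1467.4 and 1745.8 against 1770.8 and 1732.7.

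Atp5md encodes a small subunit of the membrane part, known as DAPIT, that takes part in joining ATP synthases into dimers. It was at 5.53, 5.54 and 5.83 against 4.70 and 5.14, and the groups did not overlap. This came to -0.71 ± 0.20 (SE; 3 and 2 tumours), with a limma adjusted p of 0.911, and to -0.21 without background correction. On both MyoD+/- arrays the probe failed to rise above background, so the difference is no test and the fold is not known. In this normalization the MyoD+/+ mean was 1.37-fold above a floor for the MyoD+/- arrays. That floor was the higher of the probe's own level and the lowest detected level on each array. Before normalization the signals overlapped, at 168, 150.7 and 182.8 against 139.9 and 156.7. Its other probe was detected on no array, and under the stricter detection filter the gene was not tested. Atp5k, the e subunit, which also takes part in dimer formation, was near the background too, at 5.97, 4.82 and 5.45 against 6.21 and 5.61 (0.50 ± 0.35), with the groups overlapping.

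Cytochrome oxidase is complex IV. The general forms Cox4i1, Cox6a1, Cox6b1 and Cox7a2 were detected in every tumour, while Cox7b was detected in 1. Cox4i1, which binds ATP and adjusts the enzyme, was at 13.30, 13.11 and 13.57 against 13.00 and 13.46 (-0.10 ± 0.22). Cox6a1 was at 12.66, 12.63 and 12.79 against 12.57 and 12.81 (-0.00 ± 0.17), and Cox6b1 at 13.00, 13.06 and 13.09 against 12.90 and 12.95 (-0.12 ± 0.16). Cox6b1 did not overlap, although its second probe did. Cox7a2 was at 7.15, 7.01 and 7.54 against 7.004 and 7.66 (0.10 ± 0.26). Ndufa4, which is named for complex I and was later assigned to cytochrome oxidase, was at 13.02, 12.87 and 13.04 against 12.72 and 13.09 (-0.07 ± 0.18).

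The tissue forms divided. Cox6a2 of heart and skeletal muscle, Cox4i2, known from lung, and the testis forms Cox7b2 and Cox8c were detected on no array. The testis form Cox6b2 was detected in all 5 tumours by 1 of its 2 probes, near the background, at 5.26, 5.63 and 5.99 against 5.40 and 5.33 (-0.26 ± 0.24). Cox8b, the muscle form whose E-box is printed above, was at 5.33, 4.63 and 5.62 against 4.73 and 4.93 and was above background in MyoD+/+ tumours 1 and 3 alone. The groups overlapped, and its difference was -0.36 ± 0.29. The probe passed the filter through MyoD+/+ tumours alone, so this difference is no test and sets no bound on a fold.

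Cox7a1, the muscle form of subunit VIIa, was detected in all 5 tumours. It was at 7.27, 6.67 and 7.79 against 7.16 and 7.99. The groups overlapped, the difference was 0.33 ± 0.37 (limma adjusted p = 0.963), and its range of 1.32 was among the 5 widest of the chain. MyoD+/+ tumour 2 was lowest and MyoD+/- tumour 2 highest. This pair was not particular to the muscle form: Atp5b, Atp5a1, Cox5a and Sdhb had it too. The general form Cox7a2 was also highest in MyoD+/- tumour 2, and its lowest levels were 7.004 in MyoD+/- tumour 1 and 7.01 in MyoD+/+ tumour 2. Of the skeletal muscle markers, 10 of the 18 with a probe were tested, and 3 of those 10 had the same lowest and highest tumour as Cox7a1. Tnnc2, troponin C of fast muscle, was at 10.04, 4.92 and 11.46 against 10.59 and 11.95. Trim72, a membrane-repair protein of muscle, was at 7.18, 4.61 and 7.38 against 6.76 and 8.25. Acta1, skeletal actin, was at 7.92, 5.49 and 8.23 against 6.78 and 8.34.

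The other 7 tested markers (Ttn, Actn3, Mb, Ryr1, Mylpf, Atp2a1 and Ckmt2) did not have that pair of lowest and highest tumours: the oxygen-binding protein gene Mb was highest in MyoD+/+ tumour 2 and lowest in MyoD+/- tumour 2. Their levels lay between 4.59 and 6.37, near the background. The mean log2 level of the 10 tested was 6.19, 5.34 and 6.62 against 6.16 and 6.65, and that of the 7 alone was 5.26, 5.49 and 5.58 against 5.35 and 5.42. A further 8 markers were detected on no array: Ckm, Myh1, Myh4, Myh7, Tnni2, Tnnt3, Neb and Casq1. Perm1, a regulator of oxidative metabolism in muscle, was at 6.36, 4.43 and 7.43 against 6.81 and 8.04, again lowest in MyoD+/+ tumour 2 and highest in MyoD+/- tumour 2. Ppargc1b, a coactivator of mitochondrial genes, was at 8.70, 7.35 and 9.48 against 8.09 and 9.28, with the same lowest tumour. The part of muscle-like transcripts in the level of Cox7a1 was not tested.

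**Figure D2:**
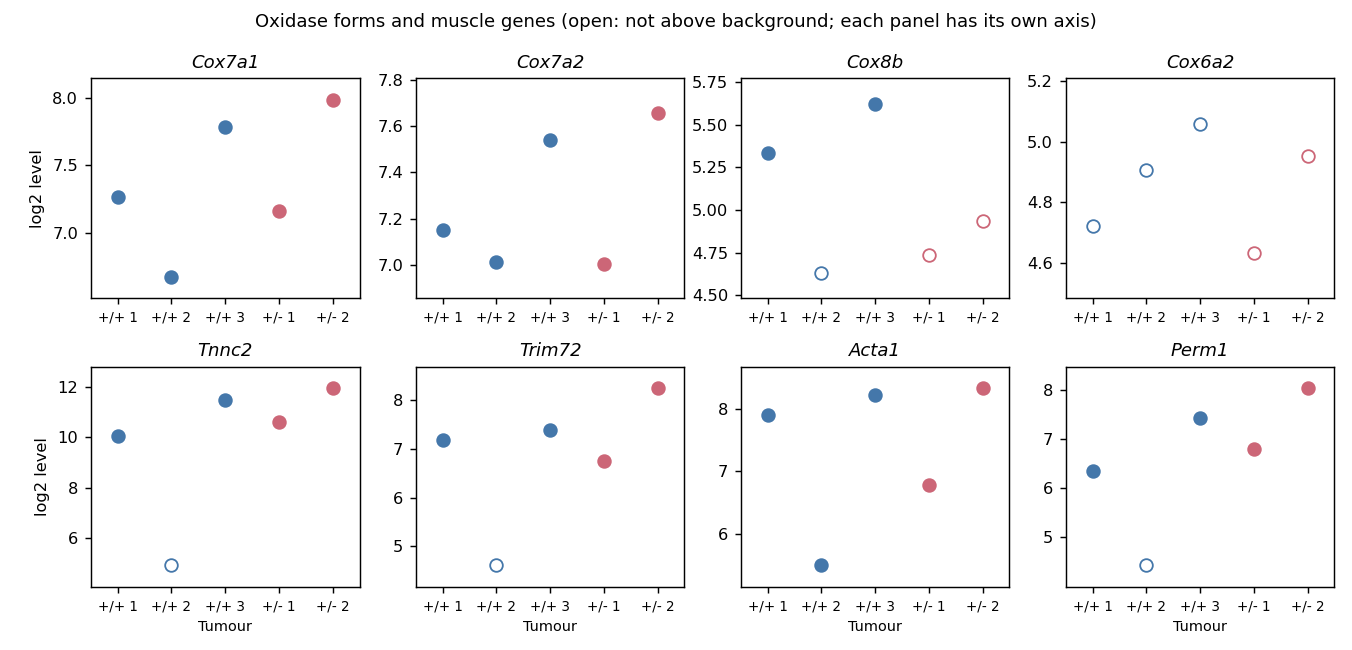
Normalized log2 level in each tumour of 4 oxidase subunits, 3 skeletal muscle markers and Perm1 (blue, MyoD+/+ tumours; red, MyoD+/- tumours; open, not above background). Each panel has its own axis, which does not start at 0; Cox7a1, Tnnc2, Trim72, Acta1 and Perm1 are lowest in MyoD+/+ tumour 2 and highest in MyoD+/- tumour 2.

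Under quantile normalization the respiratory chain varied less between the MyoD+/+ tumours than other genes did. The median standard deviation over the 3 MyoD+/+ tumours was 0.116 log2 units for the 77 genes and 0.211 for all genes tested. Bright probes vary less, so the 39 genes of the chain in the middle of its level range were set beside the 4194 genes of the array in that range, between 8.14 and 11.88. There the medians were 0.105 and 0.168. Median scaling in place of quantile normalization gave another picture of the shift that genes shared. Under it, levels minus each gene's mean had medians of 0.017, -0.344 and 0.048 in MyoD+/+ tumours 1 to 3 for the 77 genes. For genes of similar level these were 0.023, -0.277 and 0.035, so there the chain's shared shift was not the smaller. Between the MyoD+/- tumours, under quantile normalization, the median size of difference was 0.197 for the chain and 0.223 for all genes. That contrast was smaller, and it was not matched for level. The median range over all 5 tumours was 0.369 for the chain and 0.557 for all genes. The smallest range was 0.14 (Ndufa3) and the widest were those of Ndufb2, Atp5k, Sdhd, Cox7a1 and Atp5md. Ndufb2, a membrane-arm subunit, was at 6.03, 5.11 and 6.62 against 6.25 and 6.64 and was not above background in 1 tumour.

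Small as it was, the variation had an order that many of the genes shared. MyoD+/- tumour 2 held the highest level of 47 of the 77 genes (61.0%), against 15.99% of all genes tested and 16.4% of genes of similar level. The lowest level lay in MyoD+/- tumour 1 for 31 genes (40.3%, against 19.0% of all genes) and in MyoD+/+ tumour 2 for 28 (36.4%, against 23.1%). MyoD+/- tumour 2 was above a gene's own mean in 64 of the 77. It held the highest level in 22 of 34 complex I subunits, 4 of 7 assembly factors, 2 of 3 genes of complex II, 3 of 6 of complex III, 5 of 11 of complex IV and 11 of 16 of complex V.

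The step itself was small. After centring each gene on its mean, the median over the 77 genes was 0.01, -0.07 and 0.03 against -0.08 and 0.13. Under quantile normalization the tumours of the MyoD+/- group thus stood at opposite ends, with MyoD+/+ tumour 2 close to MyoD+/- tumour 1. MyoD+/- tumour 2 exceeded MyoD+/- tumour 1 in 69 of the 77 genes, by a median of 0.19, against 47.3% of all genes and a median of -0.02. Genes of a chain are not independent replicates, and this order is a description of 5 arrays. With median scaling the centred median was 0.02 in MyoD+/- tumour 1, and MyoD+/+ tumour 2 was lowest, at -0.34.

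**Figure D3:**
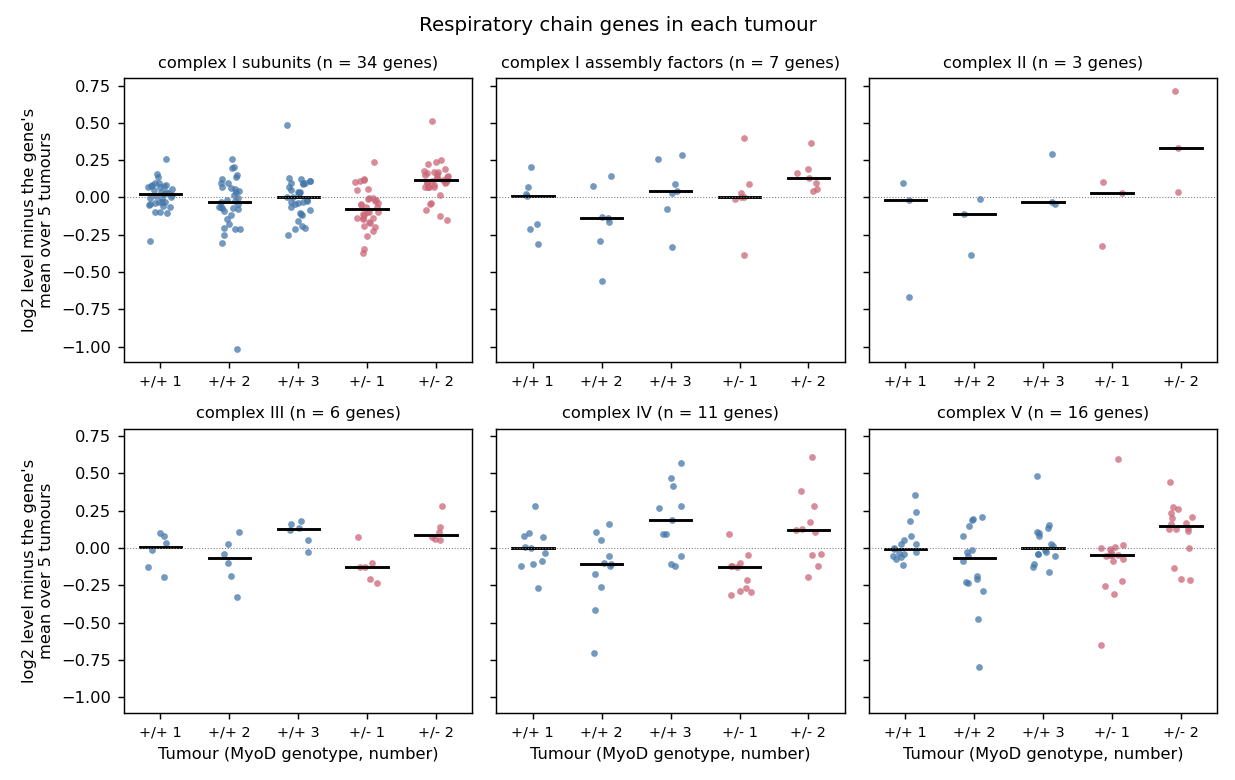
Level of each tested gene in each tumour, as log2 level minus the gene's mean over the 5 tumours, by complex (points, genes; black bars, medians; blue, MyoD+/+; red, MyoD+/-). Under quantile normalization, shown here, the median over all 77 genes is 0.13 in MyoD+/- tumour 2 and -0.08 in MyoD+/- tumour 1.

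The genotype difference of the chain depended on which MyoD+/- tumour was used. Without MyoD+/- tumour 1 the median difference was 0.14, with 63 of 77 genes higher, and without MyoD+/- tumour 2 it was -0.079, with 27 of 77 higher. With median scaling in place of quantile normalization, the median over the chain was 0.26, with 70 higher, while that of all genes moved to 0.14. Under that scaling MyoD+/- tumour 2 was highest in 65 of the 77 genes, against 26.8% of all genes and 32.1% of genes of similar level. MyoD+/+ tumour 2 was lowest in 67 of the 77, against 55.1% and 71.7%, and MyoD+/- tumour 1 was lowest in 4, against 10.7% and 5.46%.

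The order also followed letters in the sample titles, which no source used here explains. MyoD+/+ tumour 2 and MyoD+/- tumour 1 carry the letter V, MyoD+/+ tumour 3 and MyoD+/- tumour 2 the letter P, and MyoD+/+ tumour 1 the letters AI. In 37 of the 77 genes (48.1%) both P tumours lay above both V tumours, against 18.7% of all genes tested, and in 2 (2.60%) both lay below, against 23.4%. The share was 5 of 6 in complex III, 7 of 11 in complex IV, 15 of 34 in complex I subunits and 6 of 16 in complex V. This comparison was chosen after the values had been seen. Within the V pair the MyoD+/- tumour was higher in 32 of 77 genes, with a median difference of -0.03, and within the P pair in 58 of 77, with a median of 0.10. What the letters stand for, and their part in this order, was not tested.

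**Figure D4:**
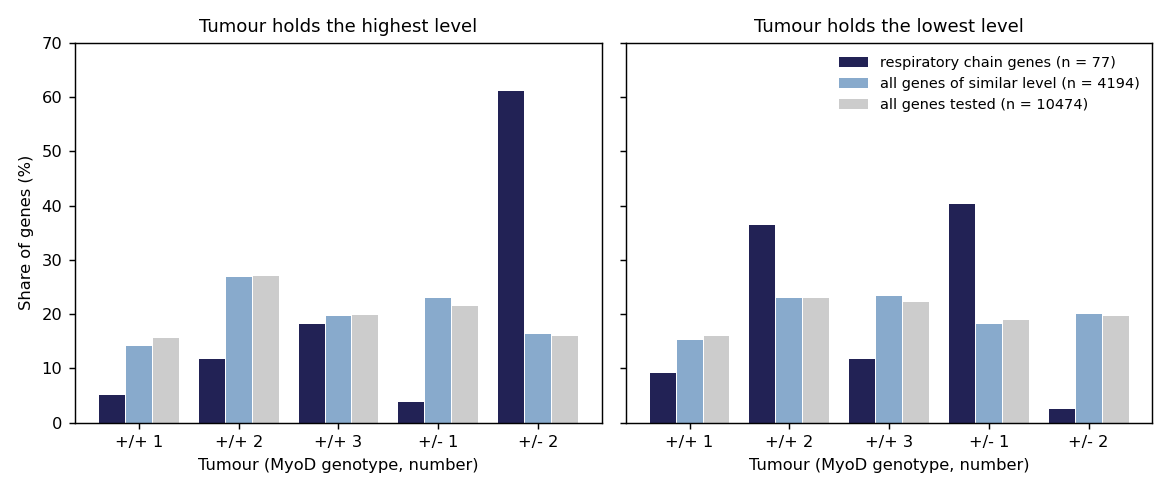
Share of genes (%, bars from 0) whose highest level (left) or lowest level (right) lies in each tumour, for the 77 respiratory chain genes, the 4194 genes of similar level and all 10474 genes tested. MyoD+/- tumour 2 holds the highest level of 61.0% of the chain and of 15.99% of all genes.

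Groups of genes around the chain, chosen after the values had been seen, differed in their order. MyoD+/- tumour 2 held the highest level in 41.4% of 29 other assembly factors of the chain, in 37.5% of 16 genes of electron carriers and ubiquinone synthesis, in 31.9% of 72 mitochondrial ribosomal proteins and in 29.0% of 31 proteasome subunits. In the carrier group MyoD+/+ tumour 2 was highest as often (37.5%). MyoD+/- tumour 1, often lowest in the chain, was highest in 29.2% and lowest in 11.1% of mitochondrial ribosomal proteins, and highest in 25.8% and lowest in 6.45% of proteasome subunits. MyoD+/- tumour 2 was highest in 20.0% of 20 regulators of mitochondrial biogenesis and in 6% of 50 cytosolic ribosomal proteins. Of 12 citric acid cycle genes, 58.3% were highest in MyoD+/+ tumour 3 and 16.7% in MyoD+/- tumour 2. Among genes of the chain with a promoter window, MyoD+/- tumour 2 was highest in 52.6% of 19 tested genes with the NRF1 motif and 64.6% of 48 without it, and in 72.2% of 18 with the ETS core and 57.1% of 49 without it.

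By genotype, none of these pathway lists held a gene past an adjusted limma p of 0.05. The 20 biogenesis regulators split into 12 above 0 and 8 below, around a median difference of 0.04. Among the 29 other assembly factors 20 differences were above 0 and 9 below (median 0.08), and 1, the oxidase assembly factor Coa7, had an unadjusted limma p under 0.05 (0.58 ± 0.19), against 5.26% of all genes tested. Of the 16 carrier and ubiquinone genes, 8 were higher and 8 lower, and Coq4, of ubiquinone synthesis, was the 1 under that threshold (0.49 ± 0.18), a share near the same background. The 12 citric acid cycle genes had 5 higher and 7 lower, with a median of -0.08. The 8 tested genes of nucleotide and phosphate exchange had 4 in each direction, with a median of 0.03.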

How the data were processed

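RNA of each tumour was purified with Trizol and RNeasy columns with DNase treatment, per the labels' protocols, and hybridised as biotin-labelled cRNA. The authors deposited a non-normalized signal intensity for each probe and array, and beside it a detection p-value, per the file headers. Their deposited processed values were log2 quantile-normalized signals without background correction, as found by setting them against the signals (largest difference of sorted values 0.00249). Scanner software was not given in the sources used here.

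The neqc function of limma 3.58.1, run in R 4.3.3, normalized the signals: background from the detection p-values, offset of 16, quantile normalization, log2. Probes were named from the platform annotation (34885 with 1 symbol, 18 with several, 10378 unnamed here), with symbols looked up in RefSeq, which changed 0. Each gene took its detected probe of highest mean. Among the genes of the chain, 23 had several detected probes, and in 12 of these the signs differed. The genotypes were compared by limma's two-sided moderated test (lmFit, then eBayes) on genotype alone, with Benjamini-Hochberg adjustment over 10474 genes; differences carry a standard error (SE) and 95% intervals. The number of arrays, 5, limits precision. The script was tested on simulated data.

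Genes named with values are the 3 of smallest p in each complex, the catalytic and tissue forms, the 5 of widest range, the 2 of smallest p in each pathway list where discussed, and detected muscle markers that bear on Cox7a1. The genes, lists and rules were chosen with earlier results of these data known. Genes whose groups do not overlap, Perm1, Ppargc1b, the E-box and the order of tumours were added after values were seen. Alternatives covered background correction, scaling, offset, filters, probe choice, variance modelling, array weights, a block on title letters and leaving out each tumour.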

Additional observations from a re-analysis of the deposited data

How the results depend on the processing

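No gene of the chain passed an adjusted limma p of 0.05 under any of the 16 alternative settings. The count at an unadjusted limma p under 0.05 was 1 in the analysis reported, Atp5md, whose difference is no test. It was 2 of 77 (2.60%) without background correction, with median scaling, with an offset of 50, with a mean-variance trend and with array weights. The share of all genes in these settings ran from 4.80% to 6.36%. With every probe on its own it was 2 of 106 (1.89%, against 5.20%). It was 3 of 87 without a filter on dim probes (3.45%, against 5.24%). With title letters as a block it was 3 of 77 (3.90%, against 8.39%), and under the stricter filter 0 of 71 (against 5.70%). Leaving out MyoD+/+ tumour 2 gave 2 (2.60%, against 5.02%) and leaving out MyoD+/+ tumour 3 gave 4 (5.19%, against 6.50%). The median difference over the chain was 0.26 with median scaling and ran from -0.079 to 0.14 on leaving out a tumour. Atp5md, at -0.71, was at -0.21 without background correction, at -0.38 with an offset of 50 and at -0.22 with the authors' processed values. No paired analysis by replicate number was possible because those numbers were given in accession order. The block on title letters pairs the V tumours and the P tumours and removes MyoD+/+ tumour 1 from the comparison.

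With median scaling, which moved the median of all genes from -0.00 to 0.14, the differences that changed sign were 0.091 for Uqcrc1, 0.16 for Uqcr10, 0.15 for Cox4i1, 0.26 for Cox6a1, 0.11 for Cox6b1, 0.14 for Ndufa4 and 0.062 for Atp5g2. Those of Uqcrc1, Cox6b1 and Atp5g2 were still below that median. Leaving out each tumour in turn gave ranges that crossed 0 for 11 of the 29 genes named by the rule: from -0.19 to 0.84 for Sdhd, from -0.26 to 0.010 for Uqcrc1, from -0.27 to 0.067 for Uqcr10, from -0.084 to 0.75 for Cox7a1, from -0.26 to 0.48 for Atp5a1, from -0.024 to 0.29 for Atp5b, from -0.33 to 0.14 for Cox4i1, from -0.12 to 0.12 for Cox6a1, from -0.23 to 0.42 for Cox7a2, from -0.25 to 0.12 for Ndufa4 and from -0.014 to 0.18 for Atp5g3. Cox6a1 was also at 0.00069 with the mean of its probes and at 0.0031 with array weights. The cause was not tested, beyond the tumour left out.

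MyoD+/- tumour 2 was highest in 42 to 65 of the 77 genes under the other scalings and probe choices, and in 61 of 106 probes taken singly. With median scaling the count lowest in MyoD+/- tumour 1 was 4 (10.7% of all genes) and in MyoD+/+ tumour 2 was 67 (55.1% of all genes and 71.7% of genes of similar level). Probes near the background limit what can be said of Atp5md, Cox8b, Cox6b2, Atp5k and Ndufb2, and 2 MyoD+/- tumours limit every genotype difference.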
